A study of Mus musculus with 7 samples.

Results

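WNT signaling was described through 46 genes that encode its ligands, receptors and direct modulators. They are the genes whose symbols match a fixed list of names (*Wnt*, *Fzd*, *Sfrp*, *Frzb*, *Rspo*, *Dkk*, *Lgr4* to *Lgr6*, *Lrp5*, *Lrp6*, *Axin1*, *Axin2*, *Znrf3*, *Rnf43*, *Wif1*, *Notum*, *Nkd1*, *Nkd2*, *Tcf7*, *Tcf7l1*, *Tcf7l2* and *Lef1*), out of 14732 genes listed for the tissue. The rule used names alone, among genes that had passed the authors' filter on low levels. The names were chosen with earlier results of these data known. RNA sequencing compared the outflow tract (OFT), the vessel that joins the embryonic ventricles to the aortic sac, between control and *Gata6STOP/+* mouse embryos at embryonic day 11.5. The control group held 3 pools labeled wild type (replicates 3, 4 and 5). The *Gata6STOP/+* group held 4 pools (replicates 1, 3, 4 and 5), and each pool joined 4 pairs of OFTs. *Gata6STOP* is a germline frameshift made with CRISPR-Cas9 that places a premature stop codon in exon 2 of the transcription factor gene *Gata6*. It was carried on 1 of the 2 alleles in every cell of the embryo, the line came from 1 founder, and the methods give a C57BL/6 background. A reagent list also names a *Mib1* mutant background for mice of this line, and whether the sequenced embryos carried it is not given in the sources used here.

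WNT proteins are secreted, lipid-modified signals that bind Frizzled receptors. In the canonical branch, a Frizzled and an LRP5 or LRP6 co-receptor hold back a destruction complex built on AXIN, so that β-catenin accumulates and acts with TCF and LEF factors on DNA. In the non-canonical branches, used by WNT5A and WNT11, Frizzled signals without β-catenin to cell polarity and movement, and this branch is known for its part in lengthening the OFT. SFRP, FRZB and WIF1 proteins bind WNTs outside the cell, DKK1 blocks LRP co-receptors, and NOTUM removes the lipid. R-spondins, through LGR receptors, protect Frizzled from ZNRF3 and RNF43, the ligases that clear it from the cell surface.

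*Gata6* itself measured 315, 257 and 286 CPM (reads counted relative to the normalized size of each library) in control replicates 3, 4 and 5. It measured 268, 203, 219 and 217 CPM in *Gata6STOP/+* replicates 1, 3, 4 and 5. The log2 fold change was −0.34 (s.e. 0.10, limma, adjusted *P*=0.389). The pool labeled *Gata6STOP/+* replicate 1 lay inside the control range, so this gene did not set it apart from the controls, and results that rest on it are given below without it. Reads on listed genes numbered 17783655 to 29035529 per control pool and 24736761 to 34467710 per *Gata6STOP/+* pool. Of markers that check the tissue label, all 8 cardiomyocyte, 7 endothelial, 7 cushion mesenchyme and 4 smooth muscle genes were listed, whereas 2 of 10 pharyngeal and foregut epithelium genes were listed, *Krt8* and *Krt18*, which summed to 69.9 to 110 CPM in control pools and 83.5 to 117 CPM in *Gata6STOP/+* pools. *Xist*, expressed from the inactive X chromosome, ranged from 362 to 662 CPM in control pools and from 1.30 to 539 CPM in *Gata6STOP/+* pools, so the sex mix of the embryos differed between pools; its part in the results was not tested.

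The promoters of members that the results turn on are shown first. A RefSeq entry (GRCm38.p6) was at hand for 30 of the 46 members. From each, the 250 bases before the transcription start were searched on both strands for the letters of GATA factor motifs and of TCF/LEF motifs, which are different strings. The GATA letters were an A or T, then GATA, then A or G. The TCF/LEF letters were CTTTGA followed by A or T. Below, a match is in capitals and each sequence reads toward its gene. *Sfrp2* (chr3:83766071-83766320, plus strand), *Wnt9b* (chr11:103749822-103750071, minus strand) and *Axin2* (chr11:108920099-108920348, plus strand) are shown from among the members whose levels did not overlap between genotypes. *Wnt2b*, another such member with an entry, is not printed. *Fzd1* (chr5:4758217-4758466, minus strand), the Frizzled gene with the highest level, is shown for its GATA letters, and *Wnt11* (chr7:98834862-98835111, plus strand) for its TCF/LEF letters.
Sfrp2: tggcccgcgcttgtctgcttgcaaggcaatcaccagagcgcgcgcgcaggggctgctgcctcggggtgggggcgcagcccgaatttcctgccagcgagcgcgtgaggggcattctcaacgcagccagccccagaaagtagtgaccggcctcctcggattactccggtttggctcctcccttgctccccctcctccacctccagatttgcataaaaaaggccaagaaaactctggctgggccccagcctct
Wnt9b: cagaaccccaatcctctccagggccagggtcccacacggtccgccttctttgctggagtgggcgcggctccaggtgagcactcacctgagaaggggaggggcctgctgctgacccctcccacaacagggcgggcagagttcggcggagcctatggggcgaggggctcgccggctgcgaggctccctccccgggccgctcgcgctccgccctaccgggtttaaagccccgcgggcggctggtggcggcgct
Axin2: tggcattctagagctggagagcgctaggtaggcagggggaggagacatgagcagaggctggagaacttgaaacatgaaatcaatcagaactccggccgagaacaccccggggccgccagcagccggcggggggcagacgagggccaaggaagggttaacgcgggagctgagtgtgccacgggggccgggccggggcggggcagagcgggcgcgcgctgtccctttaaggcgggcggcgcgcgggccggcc
Fzd1: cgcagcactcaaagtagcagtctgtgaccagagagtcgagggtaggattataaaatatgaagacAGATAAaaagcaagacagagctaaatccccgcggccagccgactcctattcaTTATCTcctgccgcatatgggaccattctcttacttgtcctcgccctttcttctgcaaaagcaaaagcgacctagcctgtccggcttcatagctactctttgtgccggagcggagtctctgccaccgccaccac
Wnt11: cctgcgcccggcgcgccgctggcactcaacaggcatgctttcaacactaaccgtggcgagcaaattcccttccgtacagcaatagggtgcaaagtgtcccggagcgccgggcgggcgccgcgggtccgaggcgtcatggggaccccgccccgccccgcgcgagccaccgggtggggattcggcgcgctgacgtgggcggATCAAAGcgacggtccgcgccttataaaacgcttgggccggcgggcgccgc

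Neither motif was found in the *Sfrp2*, *Wnt9b* or *Axin2* window, nor in that of *Wnt2b*. *Fzd1* held 2 GATA matches, and *Wnt11* held 1 TCF/LEF match, while the window of its other RefSeq start (chr7:98838595-98838844, plus strand) held 1 GATA match and no TCF/LEF match. Over all entries, GATA letters stood in 8 of the 39 windows of members (20.5%) and in 26.5% of 32851 mouse promoter windows of this length. TCF/LEF letters stood in 3 of 39 (7.69%), those of *Dkk1*, *Wnt11* and *Wnt5b*, and in 7.48% of all windows. Both shares were near those of all promoters, and these letters say nothing of binding.

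**Figure D1:**
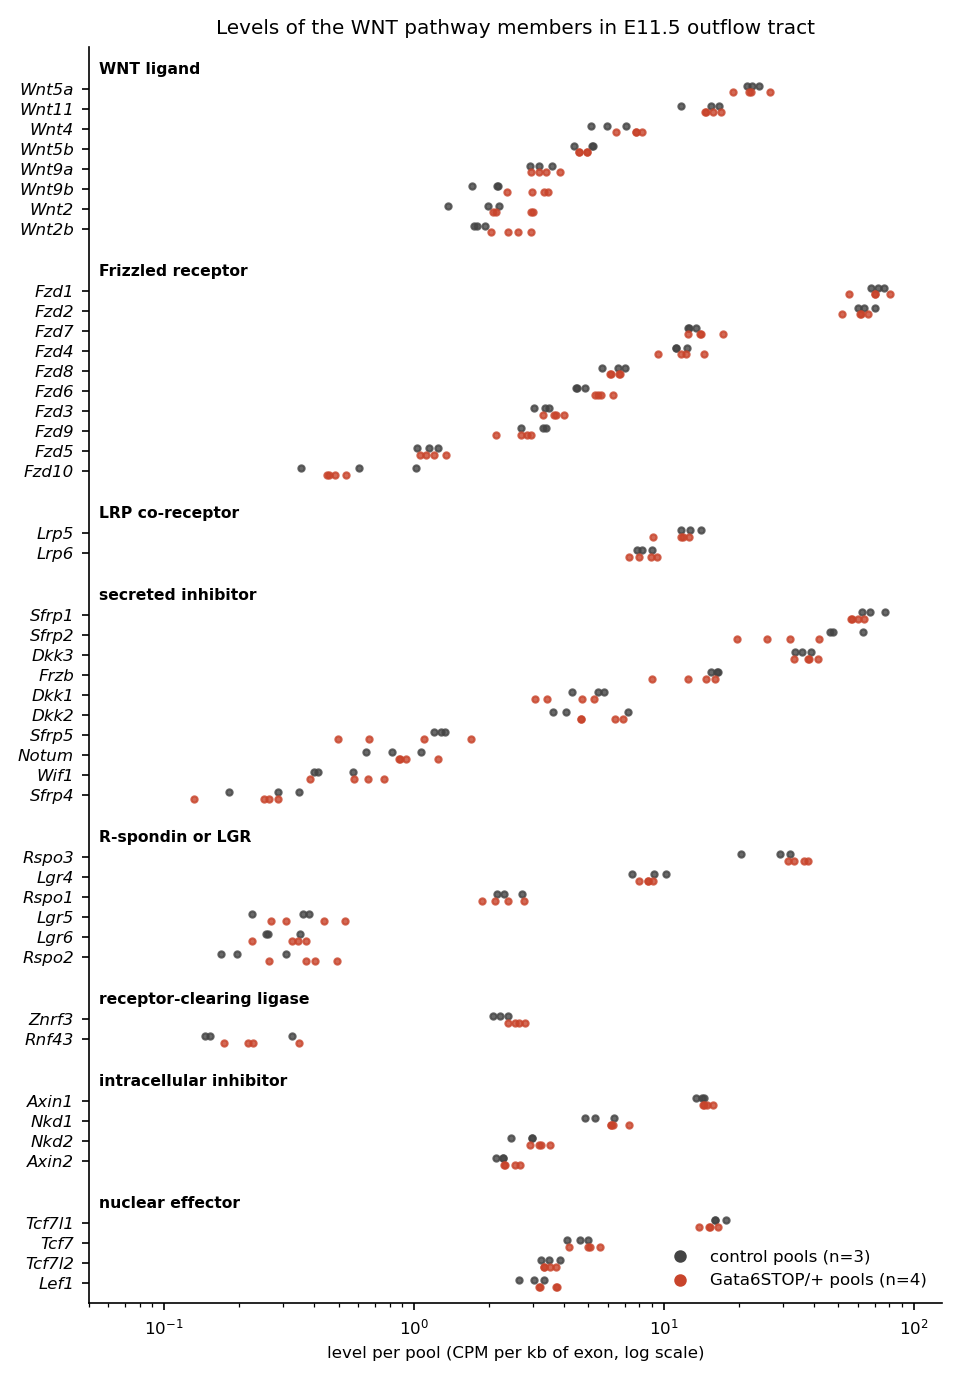
Level of each of the 46 members in each pool, in CPM per kb of exon on a log scale, grouped by role, with control pools in gray and *Gata6STOP/+* pools in red. *Fzd1*, *Fzd2*, *Sfrp1* and *Sfrp2* lead in control pools, and 8 members have control means below 1 CPM per kb.

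Among the ligands, 8 of the 19 mouse *Wnt* genes were listed. The other 11 (*Wnt1*, *Wnt3*, *Wnt3a*, *Wnt6*, *Wnt7a*, *Wnt7b*, *Wnt8a*, *Wnt8b*, *Wnt10a*, *Wnt10b* and *Wnt16*) were not analysed here. Per kb of exon, *Wnt5a* had the highest level in control pools (22.8 CPM per kb), followed by *Wnt11* (14.6), and the control ranges of these 2 did not overlap. *Wnt4*, *Wnt5b* and *Wnt9a* came next at 6.04, 4.93 and 3.22 CPM per kb, of which *Wnt4* and *Wnt5b* overlapped. *Wnt9b*, *Wnt2* and *Wnt2b* stood last at 2.01, 1.85 and 1.82 CPM per kb and could not be ordered beyond their spread. *Wnt5a* and *Wnt11* together made up 64.8% to 65.9% of the summed ligand level in control pools and 59.2% to 64.9% in *Gata6STOP/+* pools.

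The 2 leading ligands did not separate the genotypes. *Wnt5a*, the main ligand of the non-canonical branch, measured 188, 177 and 169 CPM in control replicates 3, 4 and 5, and 208, 149, 175 and 172 CPM in *Gata6STOP/+* replicates 1, 3, 4 and 5. Both the highest and the lowest pool were *Gata6STOP/+*, and the log2 fold change was −0.03 (95% confidence interval −0.24 to 0.19, limma, adjusted *P*=0.964). *Wnt11*, another non-canonical ligand, measured 60.5 ± 10.7 CPM (s.d., n=3) in control and 64.1 ± 4.56 CPM (n=4) in *Gata6STOP/+* pools, and the pools overlapped.

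The low ligands *Wnt9b* and *Wnt2b* were the ones whose pools did not overlap. *Wnt9b* encodes a ligand that can signal through β-catenin. It measured 9.69, 9.80 and 7.73 CPM in control pools and 13.4, 10.7, 15.5 and 14.97 CPM in *Gata6STOP/+* pools (replicates in the order above). Every *Gata6STOP/+* pool lay above every control pool, with a log2 fold change of 0.56 (s.e. 0.14, limma, adjusted *P*=0.283). *Wnt2b*, a canonical ligand, measured 8.10, 7.52 and 7.34 CPM in control pools and 8.59, 11.0, 9.97 and 12.4 CPM in *Gata6STOP/+* pools. All 4 *Gata6STOP/+* pools were again above the controls, and the log2 fold change was 0.42 (s.e. 0.13, limma, adjusted *P*=0.401). In bulk tissue, more cells of a type and more RNA per cell cannot be told apart, here and in what follows.

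*Wnt4* and *Wnt2* were higher on average in *Gata6STOP/+* pools but overlapped. *Wnt4*, a ligand with canonical and non-canonical actions, measured 29.7, 21.5 and 24.9 CPM in control and 27.1, 34.2, 32.5 and 32.7 CPM in *Gata6STOP/+* pools. The pool labeled *Gata6STOP/+* replicate 1 was the one that lay below the highest control, and the log2 fold change was 0.32 (s.e. 0.11, limma, adjusted *P*=0.505). Without that pool the *Wnt4* pools did not overlap, and the log2 fold change was 0.39 (limma, adjusted *P*=0.375). *Wnt2*, a canonical ligand of mesoderm, measured 4.94, 3.11 and 4.48 CPM against 4.70, 6.77, 4.80 and 6.63 CPM. Control replicate 4 held the lowest value of both genes, and without it the log2 fold changes of *Wnt4* and *Wnt2* were 0.21 and 0.24 in place of 0.32 and 0.42. In all, 6 of 8 ligands had a log2 fold change above 0, with a median of 0.21 against −0.00073 over all listed genes. The median was 0.10, with 4 of 8 above 0, without control replicate 4, and 0.32, with 7 above 0, without control replicate 3. The summed level of 5 genes of the second heart field, the progenitors that feed the OFT, was also lowest in control replicate 4. It came to 400, 368 and 392 CPM in control and 443, 408, 422 and 391 CPM in *Gata6STOP/+* pools, with overlap. Most of that sum was *Hand2* (247 CPM on average in control and 253 CPM in *Gata6STOP/+* pools). *Isl1*, *Tbx1*, *Fgf10* and *Hand2* were lowest in control replicate 4, whereas *Mef2c* was lowest in control replicate 3 (84.5 CPM, against 105 CPM in replicate 4). Of the 5 genes, 2 (*Isl1* and *Tbx1*) had an unadjusted limma *P* under 0.05, against 8.06% of all genes. The part of these 5 genes in the ligand values was not tested.

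No ligand, nor any other of the 46 members, passed an adjusted *P* of 0.05 in limma, nor did any of the 14732 genes (0%). At an unadjusted *P* under 0.05 there were 11 of 46 members (23.9%), 9 higher and 2 lower in *Gata6STOP/+*, against 8.06% of all genes (4.17% higher and 3.88% lower). Pools of the genotypes did not overlap for 6 members (13.04%), 5 higher and 1 lower, against 8.47% of all genes (4.31% higher and 4.16% lower). These members share pools and pathways, are not independent of each other, and were chosen with earlier results of these data known. The count of 11 was 7 without control replicate 4 and 7 without *Gata6STOP/+* replicate 5, when 8.82% and 5.90% of all genes passed. Without the pool labeled *Gata6STOP/+* replicate 1, it was 15 (7.65% of all genes), and 10 members did not overlap (21.7%, against 12.8% of all genes). The edgeR likelihood ratio test on reads recovered from the values called 1 member, *Sfrp2*, among 105 genes (0.713%). The edgeR quasi-likelihood test called 0 genes, with 11 members at an unadjusted *P* under 0.05, and DESeq2 called 88 genes and no member, also with 11.

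**Figure D2:**
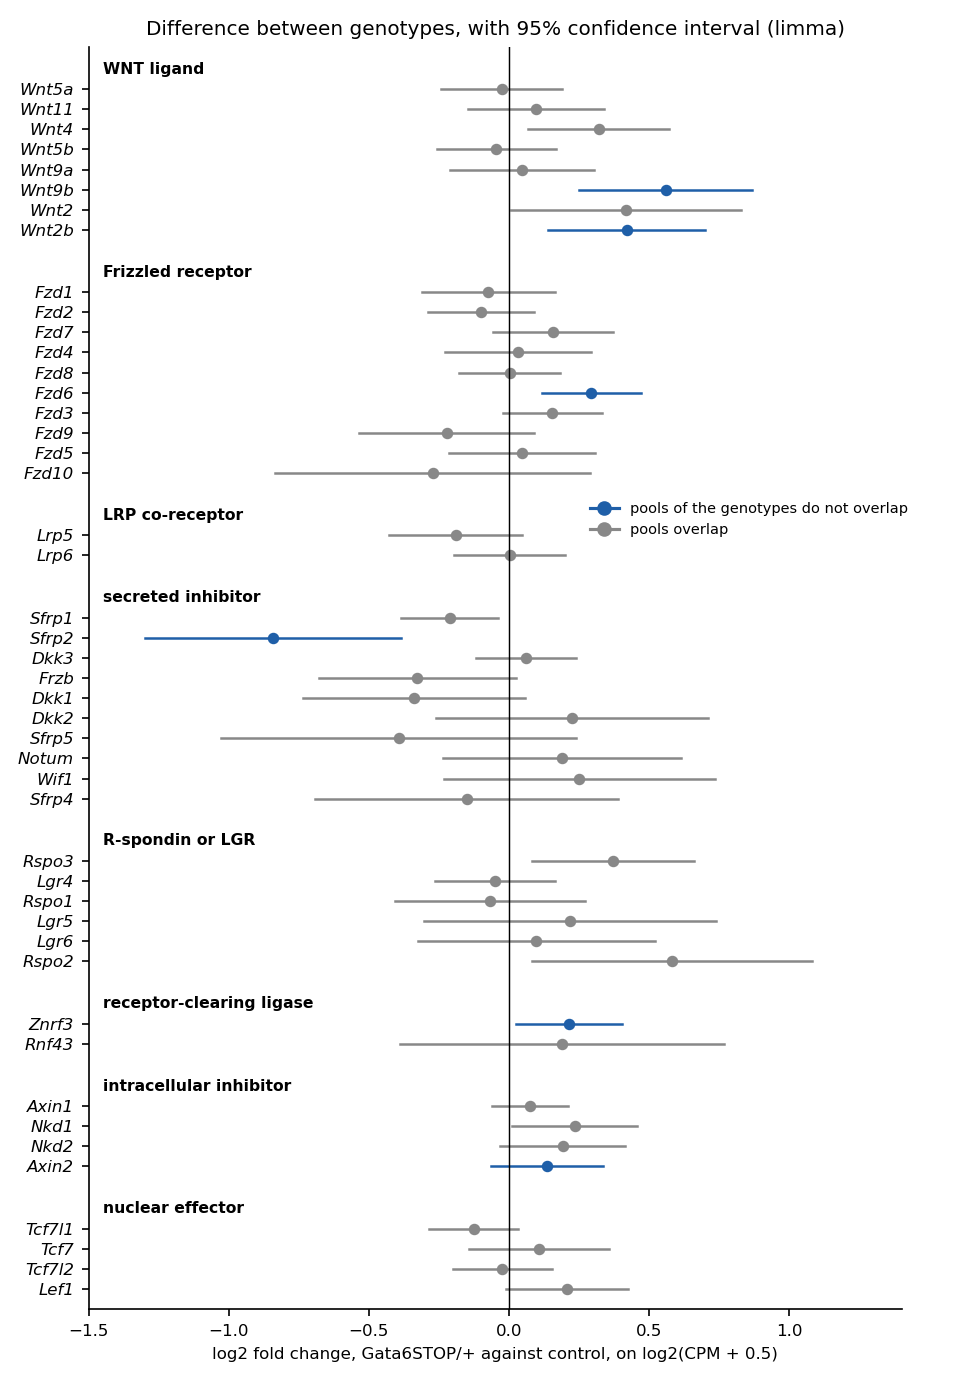
Log2 fold change of each member between *Gata6STOP/+* (n=4) and control (n=3) pools on log2(CPM + 0.5), with its 95% confidence interval from limma, members whose pools did not overlap in blue. *Sfrp2* lies farthest below 0 (−0.84), and *Rspo2* (0.58) and *Wnt9b* (0.56) farthest above it.

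Among secreted inhibitors, *Sfrp2* was the member with the largest difference. *Sfrp2* (chr3:83766321-83774316, plus strand) encodes a secreted protein with a Frizzled-like domain that binds WNTs and has been reported both to block and to aid their signal. It measured 102, 99.8 and 136 CPM in control replicates 3, 4 and 5. It measured 89.9, 42.4, 55.7 and 68.9 CPM in *Gata6STOP/+* replicates 1, 3, 4 and 5. Every *Gata6STOP/+* pool lay below every control pool, by a wide gap in replicates 3 to 5 and a narrow one in replicate 1. The *Gata6STOP/+* mean was 57.1% of the control mean. The log2 fold change was −0.84 (s.e. 0.21, 95% confidence interval −1.30 to −0.39, limma, adjusted *P*=0.276). The edgeR likelihood ratio test gave an adjusted *P* of 0.0239, the edgeR quasi-likelihood test 0.315 and DESeq2 0.294. Without the pool labeled *Gata6STOP/+* replicate 1, the log2 fold change was −1.02 (limma, adjusted *P*=0.126), and the likelihood ratio test gave an adjusted *P* of 7.44e-06. That test no longer called *Sfrp2* without control replicate 3 (adjusted *P*=0.0565), control replicate 5 (0.316), *Gata6STOP/+* replicate 4 (0.138) or *Gata6STOP/+* replicate 5 (0.0741). An antisense gene, *Gm26771*, shares 347 bases (16.1%) of *Sfrp2* exon sequence on the other strand. The library kit keeps the strand, but the setting used in counting is not given in the sources used here.

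*Sfrp1*, a WNT-binding relative of *Sfrp2*, was the highest of the 10 listed secreted inhibitors in control pools (68.6 CPM per kb), ahead of *Sfrp2* (52.2), with which its control range overlapped. It measured 336, 272 and 292 CPM in control and 248, 245, 261 and 278 CPM in *Gata6STOP/+* pools. Of the 4 *Gata6STOP/+* pools, 3 lay below all controls and replicate 5 did not, and the log2 fold change was −0.21 (s.e. 0.08, limma, adjusted *P*=0.522). Without control replicate 3 it was −0.13. *Frzb*, which encodes another SFRP-type protein, measured 52.8, 53.4 and 50.01 CPM in control pools, a narrow range, and 52.1, 29.1, 47.8 and 40.5 CPM in *Gata6STOP/+* pools. Without the pool labeled *Gata6STOP/+* replicate 1, the *Frzb* pools of the genotypes did not overlap (limma, adjusted *P*=0.475). *Dkk1*, the LRP antagonist, measured 10.5, 13.2 and 14 CPM against 12.7, 7.43, 11.4 and 8.29 CPM. The log2 fold change of *Dkk1* was −0.34, and −0.46 without the pool labeled *Gata6STOP/+* replicate 1, with overlap in both cases. Its lowest values were in *Gata6STOP/+* replicates 3 and 5, as were those of *Frzb*.

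The remaining secreted inhibitors overlapped between genotypes. *Dkk3*, a divergent DKK relative, came next in level (36.1 CPM per kb) and measured 121 ± 9.42 CPM (s.d., n=3) in control and 127 ± 11.4 CPM (n=4) in *Gata6STOP/+* pools. *Dkk2* varied most among the controls, with 26.8 CPM in control replicate 4 and 13.4 and 15.1 CPM in replicates 3 and 5. *Sfrp5*, *Notum*, *Wif1* and *Sfrp4* all had control means under 3 CPM, and *Dkk4* was not analysed here. Of the 10 genes, 4 had a log2 fold change above 0 and 6 below, with a median of −0.18. The median was −0.29 without control replicate 4, and −0.12 without control replicate 3, control replicate 5 or *Gata6STOP/+* replicate 5.

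Summed per kb of exon, the secreted inhibitors came to 190, 174 and 194 CPM per kb in control replicates 3, 4 and 5. The sums were 170, 129, 152 and 157 CPM per kb in *Gata6STOP/+* replicates 1, 3, 4 and 5, all below the controls. *Sfrp2* made up 24.9% to 32.5% of the sum in control pools and 15.2% to 24.5% in *Gata6STOP/+* pools, and *Dkk3* 18.5% to 20.5% and 24.2% to 25.7%. In CPM per kb, *Sfrp2* gave 47.4, 46.3 and 63.0 of these sums in control and 41.7, 19.7, 25.9 and 32.0 in *Gata6STOP/+* pools. Of the 10 inhibitors it was the 1 whose own pools did not overlap. The inhibitor sums were not taken without *Sfrp2*, so their separation cannot be read as a result about the other inhibitors. Sums of the R-spondins with LGR receptors did not overlap either (33.7 to 42.6 CPM per kb in control and 44.0 to 48.9 in *Gata6STOP/+* pools). Those of *Znrf3* with *Rnf43* and of the intracellular inhibitors were also higher in *Gata6STOP/+* pools without overlap. Each of these sums was mostly 1 gene: *Rspo3* (60.8% to 77.8% over all pools), *Znrf3* (86.5% to 94.0%) and *Axin1* (52.3% to 59.2%). The pools of *Rspo3* and of *Axin1* overlapped when taken alone. No background share was taken for sums of this kind. Sums of the remaining roles overlapped. The summed level of 7 cushion mesenchyme genes was 4032, 3324 and 3818 CPM in control pools and 3719, 2998, 3357 and 3421 CPM in *Gata6STOP/+* pools, with overlap between genotypes, and was lowest in the pool where *Sfrp2*, *Frzb* and *Dkk1* were lowest. Most of that sum was *Vcan* (1966 CPM on average in control and 1815 CPM in *Gata6STOP/+* pools) and *Postn* (759 and 554 CPM), whereas *Tbx20* was higher on average in *Gata6STOP/+* pools (642 and 678 CPM). *Vcan*, *Postn*, *Sox9* and *Prrx1* were lowest in *Gata6STOP/+* replicate 3, and *Tbx20*, *Twist1* and *Has2* in control replicate 4. Of these 7, 1 had an unadjusted limma *P* under 0.05, *Postn*, against 8.06% of all genes. The 4 listed neural crest and glia genes summed to 114, 81.2 and 89.1 CPM in control and 80.0, 68.5, 75.5 and 70.1 CPM in *Gata6STOP/+* pools, without overlap. Most of that sum was *Erbb3* (84.4 CPM on average in control and 63.7 CPM in *Gata6STOP/+* pools). Their part in the *Sfrp2* result was not tested.

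**Figure D3:**
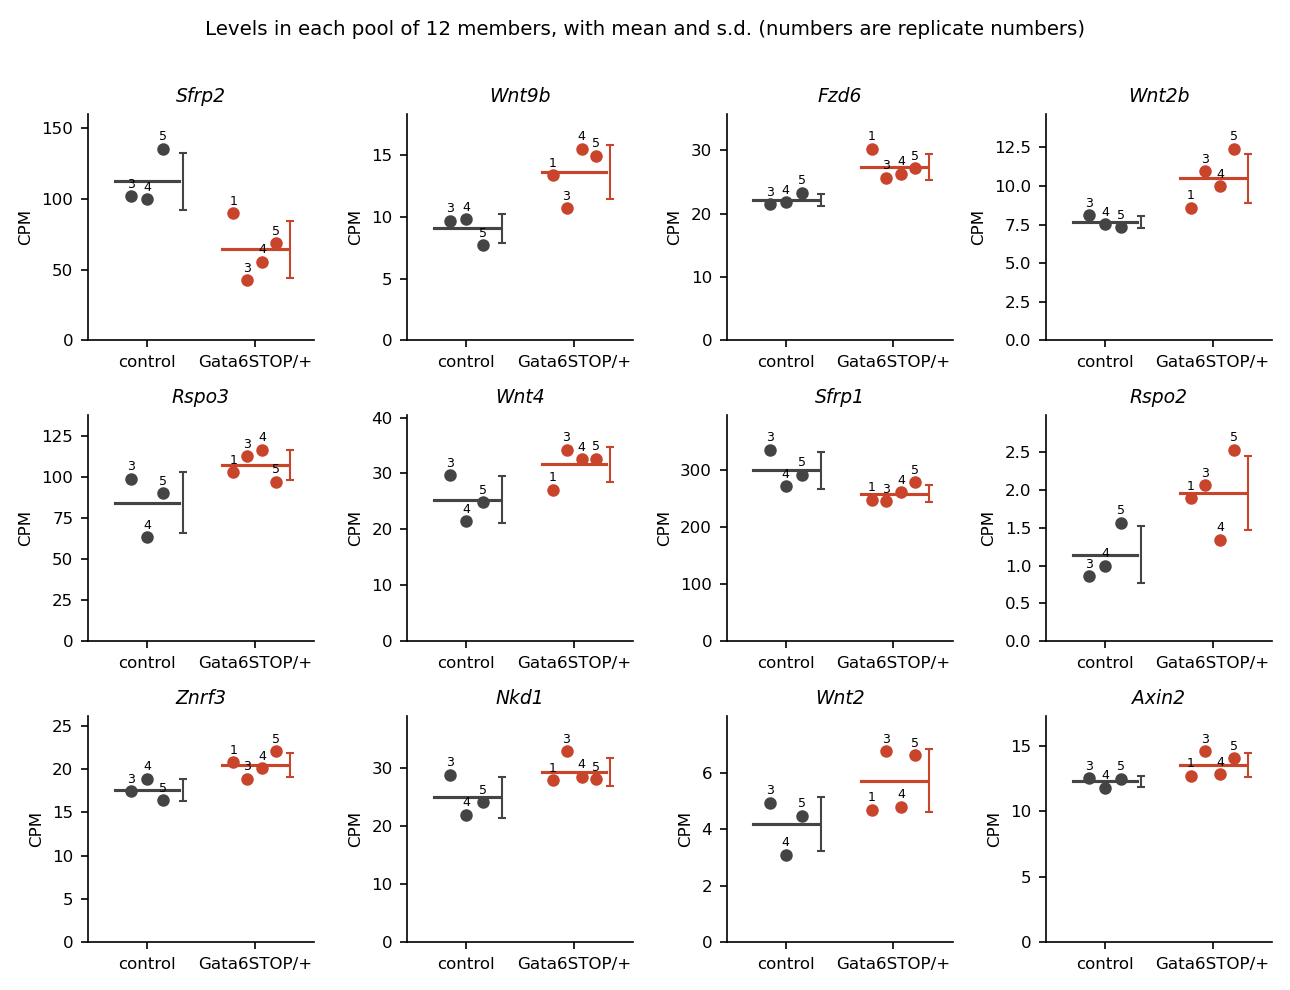
CPM in each pool of the 12 members with an unadjusted limma *P* under 0.05 or with pools that do not overlap, in order of *P*, with the mean (line) and s.d. (bar) of 3 control (gray) and 4 *Gata6STOP/+* (red) pools and axes that start at 0. *Sfrp2* and *Sfrp1* are lower in *Gata6STOP/+* and the other 10 higher, and pools do not overlap for *Sfrp2*, *Wnt9b*, *Fzd6*, *Wnt2b*, *Znrf3* and *Axin2*.

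**Figure D4:**
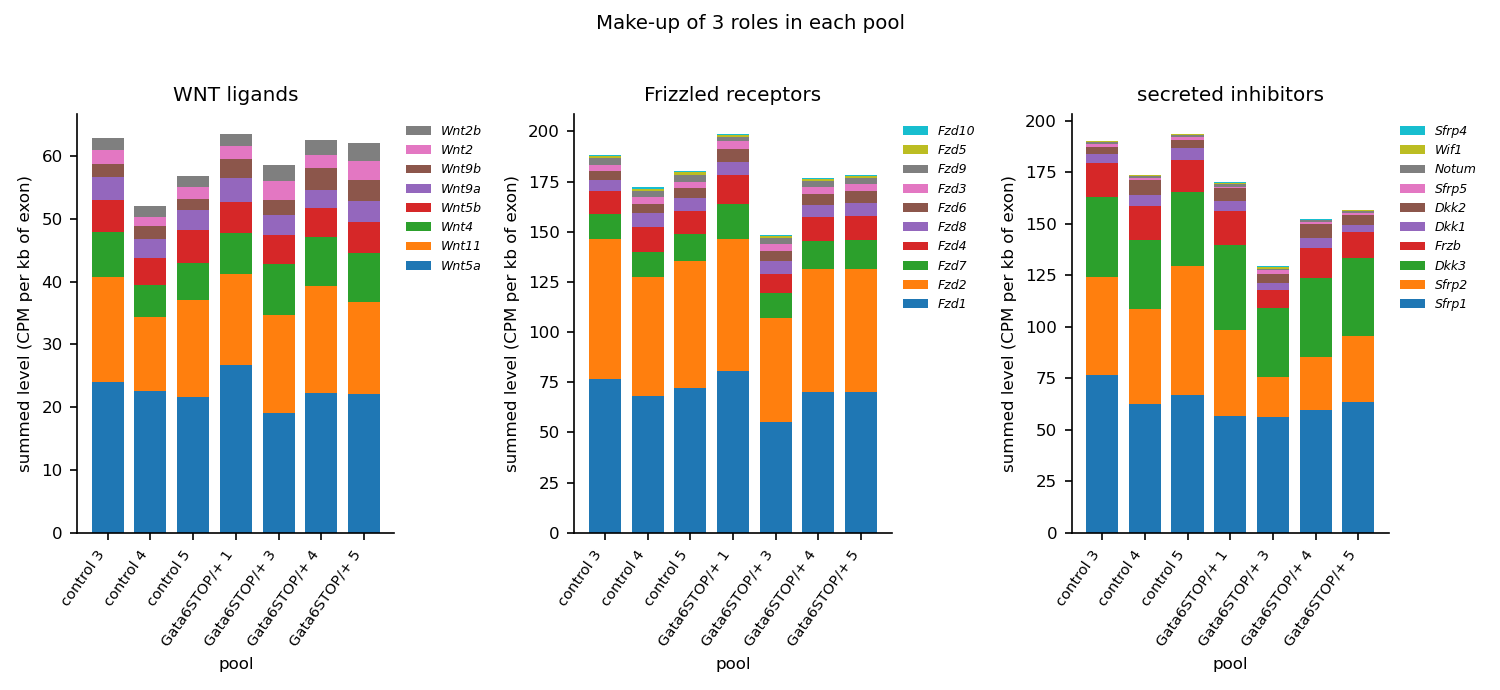
Stacked level of each WNT ligand, Frizzled receptor and secreted inhibitor in each pool, in CPM per kb of exon. The inhibitor stack is lower in all 4 *Gata6STOP/+* pools (129 to 170) than in the controls (174 to 194), and its *Sfrp2* layer is the one that narrows most.

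All 10 Frizzled genes were listed. *Fzd1* and *Fzd2* led in control pools at 72.2 and 64.3 CPM per kb, with overlapping control ranges, and together held 74.1% to 77.8% of the summed Frizzled level there. In *Gata6STOP/+* pools they held 72.1% to 74.3%. *Fzd7* (12.9), *Fzd4* (11.6), *Fzd8* (6.41), *Fzd6* (4.61), *Fzd3* (3.28), *Fzd9* (3.13), *Fzd5* (1.14) and *Fzd10* (0.659) followed, and among these neighbors the control ranges overlapped for *Fzd3* and *Fzd9* alone. *Fzd1* measured 321, 285 and 303 CPM in control and 339, 232, 293 and 295 CPM in *Gata6STOP/+* pools, with both extremes in *Gata6STOP/+*. Its log2 fold change was −0.07 (95% confidence interval −0.31 to 0.16, limma, adjusted *P*=0.895).

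*Fzd6*, a receptor of the polarity branch, was the Frizzled gene whose pools did not overlap. It measured 21.5, 21.8 and 23.3 CPM in control pools and 30.3, 25.7, 26.3 and 27.2 CPM in *Gata6STOP/+* pools. All *Gata6STOP/+* pools were above the controls, with the highest value in replicate 1, and the log2 fold change was 0.29 (s.e. 0.08, limma, adjusted *P*=0.347). Without that pool it was 0.24 (adjusted *P*=0.447). *Fzd3*, another polarity receptor, measured 42.1 ± 3.01 CPM (s.d., n=3) in control and 46.9 ± 3.66 CPM (n=4) in *Gata6STOP/+* pools, and the pools overlapped. The median log2 fold change of the 10 receptors was 0.02, with 6 above 0. Without control replicate 3 it was −0.01, with 5 above 0. It was −0.04 without the pool labeled *Gata6STOP/+* replicate 1 and −0.02 without replicate 5, each with 4 above 0.

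Neither co-receptor separated the genotypes. *Lrp5* had the higher level (12.9 CPM per kb, against 8.35 for *Lrp6*, with control ranges that did not overlap). It measured 138, 124 and 114 CPM in control and 123, 88.5, 116 and 114 CPM in *Gata6STOP/+* pools. The low *Gata6STOP/+* value was that of replicate 3, and the log2 fold change was −0.19 (95% confidence interval −0.43 to 0.05, limma, adjusted *P*=0.701). Without that pool it was −0.09. For *Lrp6* the means were 114 ± 7.97 and 115 ± 13.3 CPM.

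Of the R-spondins and their receptors, 6 of 7 were listed, and *Rspo4* was not analysed here. *Rspo3*, an R-spondin known from vessel and heart development, had the highest level of the 6 (27.2 CPM per kb), ahead of the receptor gene *Lgr4* (8.96), while *Rspo1*, *Lgr5*, *Lgr6* and *Rspo2* stood at 2.39, 0.322, 0.289 and 0.224 CPM per kb. *Rspo3* measured 98.9, 63.3 and 90.2 CPM in control and 103, 112, 117 and 97.1 CPM in *Gata6STOP/+* pools. Replicate 5 of *Gata6STOP/+* lay just below the highest control, and the log2 fold change was 0.37 (s.e. 0.13, limma, adjusted *P*=0.503). Control replicate 4 was far below the other controls, and without it the log2 fold change was 0.18. *Rspo2* measured 0.863, 1.001 and 1.57 CPM in control and 1.89, 2.07, 1.34 and 2.53 CPM in *Gata6STOP/+* pools. Its lowest pool held 18 reads, its pools overlapped, and the log2 fold change was 0.58 (s.e. 0.23, limma, adjusted *P*=0.542). *Lgr4* measured 52.7 ± 8.06 CPM (s.d., n=3) in control and 50.5 ± 2.82 CPM (n=4) in *Gata6STOP/+* pools. Of the 6 genes, 4 had a log2 fold change above 0, with a median of 0.16. The median was 0.063 without the pool labeled *Gata6STOP/+* replicate 1.

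*Znrf3* had a higher level than *Rnf43* (2.23 against 0.208 CPM per kb), and its pools did not overlap, though control replicate 4 and *Gata6STOP/+* replicate 3 differed by less than 1 read is worth. It measured 17.5, 18.9 and 16.4 CPM in control replicates 3, 4 and 5, and 20.8, 18.9, 20.1 and 22.1 CPM in *Gata6STOP/+* replicates 1, 3, 4 and 5. The log2 fold change was 0.21 (s.e. 0.09, limma, adjusted *P*=0.560). *Rnf43* measured 1.36 ± 0.663 CPM (s.d., n=3) and 1.58 ± 0.489 CPM (n=4).

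The 4 intracellular inhibitors all had a log2 fold change above 0, with a median of 0.16 and none called. *Axin2*, a scaffold of the destruction complex and a common readout of β-catenin signaling, measured 12.5, 11.8 and 12.5 CPM in control pools. It measured 12.7, 14.6, 12.8 and 14.04 CPM in *Gata6STOP/+* pools. The pools did not overlap, but replicates 1 and 4 of *Gata6STOP/+* exceeded the highest control by little, and the log2 fold change was 0.14 (s.e. 0.09, limma, adjusted *P*=0.755). *Nkd1*, a feedback inhibitor that binds Dishevelled, measured 28.9, 22.0 and 24.2 CPM in control and 28, 33.04, 28.6 and 28.1 CPM in *Gata6STOP/+* pools. The pools overlapped, and the log2 fold change was 0.23 (s.e. 0.10, limma, adjusted *P*=0.597). Without control replicate 4 it was 0.15. *Axin1*, the constitutive scaffold, had the highest level of the 4 (14.1 CPM per kb) and measured 54.7, 55.4 and 51.6 CPM in control and 57.1, 54.8, 55.3 and 60.1 CPM in *Gata6STOP/+* pools. Its log2 fold change was 0.08 (95% confidence interval −0.06 to 0.21, limma, adjusted *P*=0.792). For *Nkd2* the means were 13.5 ± 1.44 and 15.5 ± 1.15 CPM, with overlap. Without the pool labeled *Gata6STOP/+* replicate 1, the *Nkd2* pools did not overlap (log2 fold change 0.23, limma, adjusted *P*=0.653).

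Among nuclear effectors, *Tcf7l1*, which mostly represses its targets, had the highest level (16.6 CPM per kb). It measured 69.6, 62.8 and 63.2 CPM in control and 64.9, 54.5, 60.0 and 59.4 CPM in *Gata6STOP/+* pools. Of the 4 *Gata6STOP/+* pools, 3 were below all controls, and the log2 fold change was −0.13 (95% confidence interval −0.29 to 0.03, limma, adjusted *P*=0.705). Without the pool labeled *Gata6STOP/+* replicate 1, the pools did not overlap (log2 fold change −0.17, adjusted *P*=0.606). *Lef1*, an activator, measured 26.6, 23.1 and 29.3 CPM against 28.2, 32.7, 27.8 and 32.9 CPM, with overlap. *Tcf7* and *Tcf7l2* had means of 12 ± 1.15 and 30.9 ± 2.77 CPM in control pools (s.d., n=3) and 12.97 ± 1.47 and 30.3 ± 1.68 CPM in *Gata6STOP/+* pools (n=4).

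A set of 10 members was put together for this report as reported transcriptional targets of β-catenin signaling that feed back on the pathway (*Axin2*, *Lef1*, *Tcf7*, *Nkd1*, *Notum*, *Rnf43*, *Znrf3*, *Lgr5*, *Dkk1* and *Wif1*). Of these 10, 9 had a log2 fold change above 0, all but *Dkk1*, with a median of 0.20, beside 49.8% of all genes above 0. None was called, and 2 (*Nkd1* and *Znrf3*) had an unadjusted *P* under 0.05, against 8.06% of all genes. The count of 9 also held on leaving out each pool in turn, with a median of 0.11 without control replicate 4. *Notum*, *Rnf43*, *Lgr5* and *Wif1* had control means of 2.03, 1.36, 3.30 and 1.12 CPM, so their part in that count rests on few reads. The set was chosen with earlier results of these data known, and its genes share the same pools. Of 10 other listed transcriptional targets, 6 had a log2 fold change above 0 and 4 below, with a median of 0.10.

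**Figure D5:**
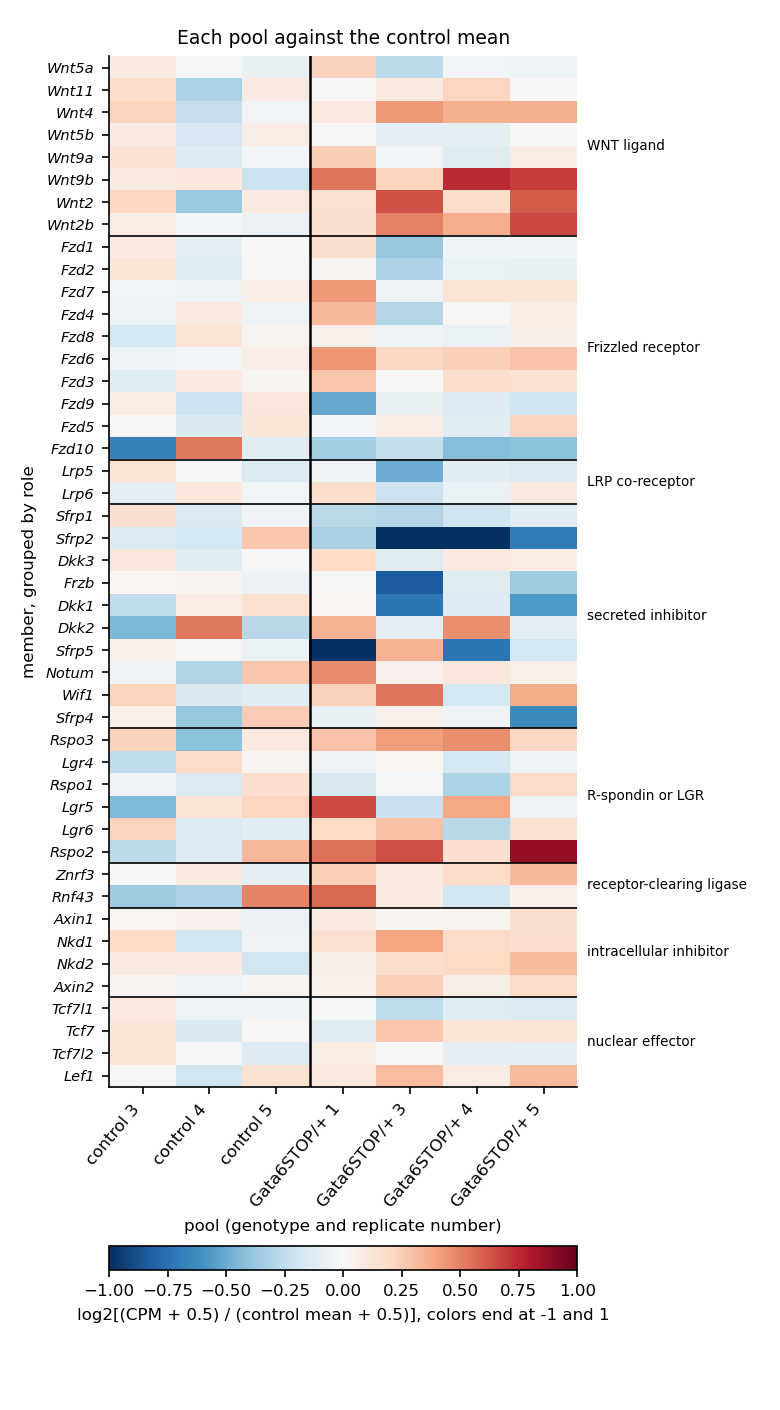
Level of each member in each pool relative to the control mean, as log2[(CPM + 0.5) / (control mean + 0.5)], with members in rows by role and colors that end at −1 and 1. *Gata6STOP/+* replicate 3 is lowest for 13 of 46 members and control replicate 4 for 12, and *Sfrp2* is the darkest blue row.

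Pools of 1 genotype differed among themselves across the members. *Gata6STOP/+* replicate 3 was the lowest of the 7 pools for 13 of 46 members (28.3%), against 15.2% of all genes. These were *Wnt5a*, *Fzd1*, *Fzd2*, *Fzd7*, *Fzd4*, *Lrp5*, *Lrp6*, *Sfrp1*, *Sfrp2*, *Dkk3*, *Frzb*, *Dkk1* and *Tcf7l1*, mostly the leading members of their roles. The same pool was the highest for 8 members, among them *Wnt4*, *Wnt2*, *Nkd1*, *Axin2* and *Tcf7*. Control replicate 4 was the lowest for 12 members (26.1%, against 11.8% of all genes), among them *Wnt11*, *Wnt4*, *Wnt2*, *Rspo3*, *Nkd1*, *Axin2*, *Tcf7* and *Lef1*. The pool labeled *Gata6STOP/+* replicate 1 was the highest for 12 members (26.1%, against 19.3% of all genes), of which 5 were Frizzled genes. Among genes of at least 10 CPM in control, the 31 members had a median coefficient of variation of 9.57% in control and 8.98% in *Gata6STOP/+* pools, against 6.80% and 6.66% over all 10258 such genes.

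The rest of the pathway was read through 76 genes, of which 68 were listed. None was called by limma, 11 (16.2%) had an unadjusted *P* under 0.05, 7 higher and 4 lower, against 8.06% of all genes, and the pools did not overlap for 7 (10.3%, against 8.47% of all genes). Their median log2 fold change was 0.01. Secretion factors, further co-receptors and surface modulators (15 of 17 listed) split into 6 above and 9 below 0, and cytoplasmic and nuclear transducers (29 of 29) into 13 and 16. Planar cell polarity genes (14 of 15) split into 11 above and 3 below 0, with a median of 0.05, and other transcriptional targets (10 of 15) into 6 and 4.

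The smallest *P* among them was that of *Daam2*, a formin that links Dishevelled to the cytoskeleton. It measured 83.1, 77.6 and 81.2 CPM in control and 111, 90.7, 95.3 and 96.7 CPM in *Gata6STOP/+* pools, without overlap (log2 fold change 0.28, s.e. 0.07, limma, adjusted *P*=0.315). *Cd44*, a hyaluronan receptor and known WNT target, measured 89.3, 78.4 and 80.3 CPM against 91.7, 95.8, 97.1 and 97.2 CPM, also without overlap (log2 fold change 0.21, s.e. 0.06, limma, adjusted *P*=0.400). *Shisa3*, of a family that restrains Frizzled maturation, measured 8.97, 9.35 and 8.74 CPM against 6.74, 4.38, 7.20 and 6.63 CPM. Its *Gata6STOP/+* pools were all below the controls (log2 fold change −0.52, s.e. 0.16, limma, adjusted *P*=0.401).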

How the data were processed

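Polyadenylated RNA of pooled OFTs was sequenced with a strand-keeping kit. Per the study's methods, adapters were removed (Cutadapt v1.18), expression was estimated with RSEM v1.2.3 against Ensembl annotation of GRCm38, and a filter of 1 CPM in 3 or more pools was followed by TMM scaling in edgeR v3.32.1. The deposited CPM are relative to that scaled library size and fill 1 column for each pool, and all 14732 genes passed the filter as deposited. The series' description states 3 pools per genotype, whereas the labels show 3 control and 4 *Gata6STOP/+* pools, and the labels were followed. Nothing says how the embryos of separate pools were related. The *P*-values set the difference between genotypes against the spread between these pools, and treat the pools as independent.

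Dividing each pool by the value of 1 read gave whole reads for 100% of values (tolerance 0.01). Genes were tested with limma 3.58.1 (R 4.3.3) on log2(CPM + 0.5) with a mean-variance trend, two-sided, without covariates, with Benjamini-Hochberg adjustment over all genes and a threshold of 0.05. Fold changes on this scale understate those of low genes. EdgeR 4.0.16 and DESeq2 1.42.0 ran on the recovered reads, and all fits were tested on simulated data. Alternatives were the constants 0.1 and 2, a mean of at least 5 CPM, median-of-ratios scaling, the replicate number as a block, and leaving out each pool. Leaving out pools in edgeR was added after the values were seen. Lengths and positions come from GENCODE M21 (GRCm38), and levels per kb use the union of exons. The authors' comparison columns were not used.

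Members and gene lists were chosen with earlier results of these data known. Members with an unadjusted *P* under 0.05, a call by any tool or pools without overlap, and the highest of each role, were given in full, and others by ranges. Of the other pathway genes, the 3 with the smallest *P* were named. Members named for a change on leaving out a pool, and values of *Frzb*, *Dkk1*, *Dkk2* and *Lef1* by pool, and *Shisa2*, were chosen after their values were seen. An item in a marker list is not reported here.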

Additional observations from a re-analysis of the deposited data

Results flagged for a closer look

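In groups of 4 pools, a value was marked when its gap to the nearest other pool, as a share of the group's range, exceeded Dixon's 95% limit, which chance does in about 1 in 20 groups. Of 50 genes examined in the *Gata6STOP/+* group, 2 were marked. *Nkd1* measured 33 CPM in *Gata6STOP/+* replicate 3, above the other pools of that group (gap 0.874 of the range). *Notum* measured 3.02 CPM in the pool labeled *Gata6STOP/+* replicate 1 (gap 0.851 of the range).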

How the results depend on the processing

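The number of members called was 0 in limma and 1 (*Sfrp2*) in the edgeR likelihood ratio test. On leaving out 1 pool it was 0 in limma, 0 in the edgeR quasi-likelihood test and 0 to 2 in the likelihood ratio test, the 2 being *Sfrp2* and *Wnt9b* without *Gata6STOP/+* replicate 3. Of the other pathway genes, 0 were called with all pools by any test, and on leaving out 1 pool 0 to 1 by the likelihood ratio test (*Shisa2* without control replicate 4, *Daam2* without *Gata6STOP/+* replicate 3) and 0 by limma and the quasi-likelihood test. The number of members without overlap was 6, 5 with median-of-ratios scaling, and 8 to 13 on leaving out 1 pool, which leaves fewer pools to separate (17.4% to 28.3% of members, against 11.1% to 19.1% of all genes). Deviations from the group means of pools with the same replicate number correlated at −0.0084, −0.12 and −0.0016 for replicates 3, 4 and 5. These values show no shared shift, but they cannot tell whether such pools were collected together, which is not given. With the replicate block, to which replicate 1 adds nothing for want of a control, limma called 14 genes, the quasi-likelihood test 13 and the likelihood ratio test 118, each with 1 member, *Sfrp2* (log2 fold change −1.02 in limma, adjusted *P*=0.0110). *Gata6* was then called by the likelihood ratio test (log2 fold change −0.42). Fold changes near 0 changed sign for *Wnt5a* without control replicate 3 (0.016) or *Gata6STOP/+* replicate 3 (0.052), within a range of −0.11 to 0.052, and for *Fzd1* without *Gata6STOP/+* replicate 3 (0.028), within a range of −0.15 to 0.028. The cause of these shifts was not tested. The low members, down to 18 reads in a pool, allow the widest intervals.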
